A study of Mus musculus with 8 samples.

Results

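The genes described here are the ligands and receptors of the 4 classical axon guidance systems, taken from the table by name: semaphorins of classes 3 to 7 with their plexins and neuropilins, ephrins with their Eph receptors, Slits with Robo receptors, and netrins with Dcc, neogenin (Neo1) and the Unc5 receptors. The rule took 70 of the 21878 genes of the table, 35 ligands and 35 receptors. Of these, 53 (30 ligands and 23 receptors) reached at least 1 FPKM (fragments per kilobase of transcript, scaled to the mapped fragments of a library) in at least 2 of the 8 libraries and were tested, together with every other gene that did so, 12884 in all. The RNA was that of dorsal root ganglia, lumbar levels 4 and 5, taken from C57BL/6 mice on day 3 after sham surgery or transection of the sciatic nerve (named SNI in the sample titles). Every mouse carried floxed alleles of Myh9 and Myh10, which encode non-muscle myosin II heavy chains; the WT groups had no Cre, and the dKO groups also carried Advillin-Cre, active in sensory neurons, so that glia, vessels and immune cells keep both genes. There were 4 groups of 2 libraries: WT sham, WT SNI, dKO sham, dKO SNI. The labels give no age or sex, and nothing in them says that libraries of a group stem from different mice, so the p-values describe only how far libraries differ, which may be technical.

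Guidance cues are secreted or membrane-bound proteins that steer growing axons by attracting or repelling the growth cone. Their receptors act through small GTPases on actin and on the actomyosin that Myh9 and Myh10 provide, and plexins, Robos and Unc5 receptors are best known for repulsion. In the adult, ganglion neurons, satellite glia, Schwann cells, vessels and macrophages all make members of these families, and a whole ganglion averages over them. A lower value can stand for fewer cells of a type or for less RNA per cell, which cannot be told apart in such samples.

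Read totals are unknown, so the counting error behind an FPKM value is unknown as well. Myh9 measured 27.2 to 31.6 FPKM in WT sham and 10.9 to 12.1 FPKM in dKO sham, but 24.4 to 24.6 FPKM in dKO SNI against 29.7 to 30.8 FPKM in WT SNI, and Myh10 was lower in dKO than in WT after either surgery. Y-linked transcripts (Ddx3y, Eif2s3y, Kdm5d and Uty) measured 2.10 to 17.8 FPKM in WT sham and dKO SNI and at most 0.0109 FPKM in WT SNI and dKO sham. Each comparison of 2 single groups therefore also differs in Y-linked transcripts, and so does the difference between the injury responses (the interaction). The difference cancels in the injury change averaged over both genotypes and in the genotype change averaged over both surgeries, which are given first below. One library, WT sham 2, held skeletal muscle transcripts, with a summed level of 7 markers of 542 FPKM against at most 11.98 FPKM elsewhere. Neuronal markers (10 genes) summed to 7148 to 7680 FPKM in WT sham, 6171 to 7814 in WT SNI, 6528 to 7208 in dKO sham and 3489 to 4843 in dKO SNI. Macrophage markers (8 genes) summed to 31.7 to 45.0, 286 to 292, 53.2 to 74.7 and 463 to 558 FPKM in the same order, endothelial markers (8 genes) to 39.7 to 45.8, 53.2 to 54.3, 47.8 to 57.8 and 72.5 to 91.6 FPKM, and fibroblast markers (8 genes) to 216 to 312, 578 to 880, 450 to 573 and 1099 to 1394 FPKM. Neutrophil markers (7 genes) summed to 673 to 904, 1211 to 2394, 661 to 1076 and 6647 to 6805 FPKM in the same order of groups. No gene of these lists was at 0 in all libraries. The part of these cell types in the changes below was not tested.

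Among the 53 tested members the most abundant were the secreted semaphorin Sema3b, with a mean of 26.0 FPKM over the 8 libraries, and the receptors Plxnc1 and Plxnd1, with 20.4 and 18.1 FPKM. Sema4f (14.0), Slit1 (11.6), Sema6d (11.1) and Efna1 (11.0 FPKM) followed. The median of the means was 3.93 FPKM over the 30 ligands and 3.11 FPKM over the 23 receptors, below the 6.82 FPKM of all tested genes. All 9 plexins, both neuropilins and all 6 class 4 semaphorins passed the filter, whereas 2 of 9 EphA receptors did. Dcc, the attractive netrin receptor, measured 0.05 to 0.13 FPKM in the 8 libraries, and Sema3a, the best-known repellent of sensory axons, 0 to 0.08 FPKM.

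Summed over the 35 receptors, the level was 144 and 150 FPKM in WT sham against 122 and 112 FPKM after injury, and 138 and 128 FPKM in dKO sham against 97.4 and 90.2 FPKM after injury. The 35 ligands summed to 179 and 187, 199 and 173, 166 and 179, and 161 and 154 FPKM in the same order. The receptor sums of injured ganglia lay below those of sham ganglia in both genotypes; the ligand sums overlapped in WT and were lower after injury in dKO. Much of the receptor difference lay in Plxnc1 and Plxnd1: without them the sums of the other 33 receptors were 87.5 and 94.6 FPKM (WT sham) against 91.2 and 80.2 FPKM (WT SNI), which overlap, whereas the dKO sums of 89.5 and 85.4 FPKM after sham lay above the 74.6 and 71.1 FPKM after injury.

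Nerve injury, averaged over the genotypes, was the first comparison, and it asked which cues and receptors change in ganglia whose axons have been cut. A small number of semaphorins rose steeply, led by Sema6a. The largest falls were of the receptors Robo2, Plxnc1, Plxna2 and Unc5b and of the ligand Sema7a. Changes are differences of log2(FPKM + 1) with their standard error in limma, which makes changes of genes with low values look smaller, and a gene is called where its Benjamini-Hochberg adjusted p over the 12884 genes is under 0.05. Of the 53 members, 12 rose and 20 fell, where 55% of all tested genes were called (29.5% higher, 25.5% lower). The members' share of 60.4% in either direction was close to that background. By direction it was 22.6% higher and 37.7% lower, a tilt that was not tested. Ligands (8 rose, 12 fell, of 30) and receptors (4 rose, 8 fell, of 23) had median changes of -0.08 and -0.07, against 0.04 over all tested genes, and both medians stayed below 0 after median centring and quantile normalization. 5 members passed the filter through 1 surgery only: Efna3, Robo1 and Unc5b through sham libraries, and Efnb3 and Epha2 through dKO SNI, so their difference is partly built into the filter. Of the 32 calls, 22 were kept under every alternative that could test the gene. The others were Efna2 and Efnb3, lost under quantile normalization (adjusted p 0.137 and 0.331), and Neo1, Ntn4, Plxna4, Plxnb3, Sema3g, Sema6d, Slit2 and Unc5c, lost when 1 of several libraries was left out (Ntn4, Plxna4, Sema3g and Slit2 also in the fit without a filter, at 0.0569, 0.0833, 0.0765 and 0.0688).

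**Figure D1:**
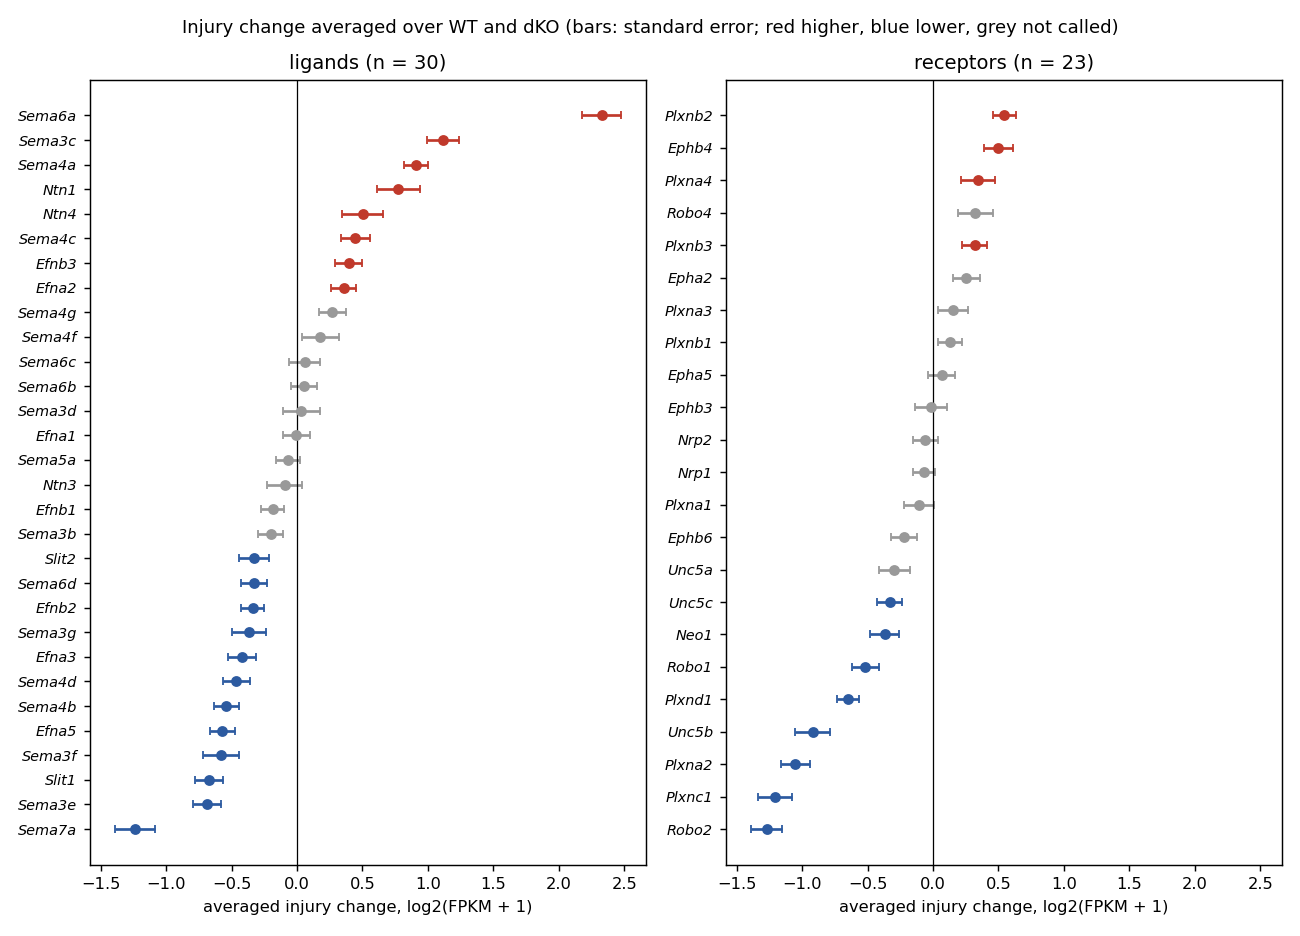
Injury change averaged over WT and dKO for the 30 tested ligands (left) and the 23 tested receptors (right), as log2(FPKM + 1) with its standard error. Red and blue points passed an adjusted p of 0.05; Sema6a lies at 2.33, well right of every other member, and Robo2, Sema7a and Plxnc1 at -1.27, -1.24 and -1.21.

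Among the semaphorins, a family of repellents and attractants sharing the sema domain, Sema6a changed most. It measured 1.24 and 1.73 FPKM in WT sham against 17.3 and 10.3 FPKM after injury, with dKO libraries at 1.504 and 1.62 FPKM (sham) and 10.1 and 10.1 FPKM (SNI). All 4 injured libraries lay at least at 10.1 FPKM and no sham library above 1.73 FPKM, a mean ratio of 7.85, and the change was 2.33 ± 0.15 (adjusted p 7.37e-06). Sema6a is a transmembrane class 6 semaphorin that binds Plxna2 and Plxna4. Of the other class 6 members, Sema6d fell from a mean of 12.5 to 9.80 FPKM (-0.33 ± 0.10, adjusted p 0.0209, and 0.0561 to 0.0781 without WT sham 1, WT sham 2, WT SNI 2, dKO sham 1 or dKO SNI 2), and Sema6b (0.05 ± 0.10) and Sema6c (0.06 ± 0.12) did not pass.

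Secreted class 3 semaphorins signal through neuropilins and class A plexins. Sema3c rose, from 3.76 and 3.34 FPKM in WT sham to 8.86 and 12.3 in WT SNI, and from 4.98 and 3.74 in dKO sham to 8.50 and 9.27 FPKM in dKO SNI (1.11 ± 0.12, adjusted p 0.000102). The injured and sham libraries did not overlap. Sema3e went the other way, with 3.38 and 2.57 FPKM in WT sham against 1.34 and 1.37 FPKM after injury, with dKO libraries at 2.03 and 1.61 FPKM (sham) and 0.82 and 0.82 FPKM (SNI) (-0.69 ± 0.11, adjusted p 0.000633). Sema3f (-0.58 ± 0.14) and Sema3g (-0.36 ± 0.13, adjusted p 0.0366) fell too, the latter not called without WT sham 1, WT sham 2, WT SNI 1, WT SNI 2, dKO sham 2 or dKO SNI 2 (0.0594 to 0.117). Sema3b, the most abundant, measured 20.5 to 29.6 FPKM and did not pass (-0.20 ± 0.10, adjusted p 0.104).

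Class 4 semaphorins are transmembrane ligands, mostly of B-type plexins, several of them known from immune cells. They split: Sema4a and Sema4c rose, Sema4b and Sema4d fell, and Sema4f and Sema4g did not pass (adjusted p 0.312 and 0.0516). Sema4a measured 1.02 and 1.21 FPKM in WT sham against 2.29 and 2.33 FPKM after injury, with dKO libraries at 1.29 and 1.31 FPKM (sham) and 4.09 and 4.23 FPKM (SNI). Its order of group means was that of the macrophage, fibroblast, neutrophil and endothelial markers, whose sums are given above. The neutrophil sums overlapped between the sham groups, and the endothelial sums between WT SNI and dKO sham. The change of Sema4a was 0.91 ± 0.09 (adjusted p 5.4e-05). Sema4c, a ligand of Plxnb2, measured 5.62 and 4.58, 7.05 and 5.91, 5.63 and 7.09, and 9.40 and 10.8 FPKM in the same order of groups (0.45 ± 0.11, adjusted p 0.00783), and its sham and injured libraries overlapped. Sema4b (-0.54 ± 0.09) and Sema4d, the classical ligand of Plxnb1 (-0.46 ± 0.10), fell at adjusted p 0.00118 and 0.00425. Sema5a, the tested class 5 member, stayed at 4.06 to 5.72 FPKM (-0.07 ± 0.09, adjusted p 0.543).

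Sema7a, the membrane-anchored semaphorin that binds Plxnc1 and integrins, fell together with that plexin. Sema7a measured 13.3 and 17.3 FPKM in WT sham against 8.37 and 6.11 FPKM after injury, with dKO libraries at 9.77 and 15.1 FPKM (sham) and 4.04 and 3.38 FPKM (SNI) (-1.24 ± 0.15, adjusted p 0.000195). Plxnc1 measured 33.6 and 31.4, 16.2 and 16.5, 28.3 and 20.7, and 9.63 and 6.88 FPKM (-1.21 ± 0.13, adjusted p 8.07e-05). For both genes every injured library lay below every sham library, and dKO SNI was lowest, as it was for the summed neuronal markers. In WT, however, the neuronal sums overlapped between sham (7148 to 7680 FPKM) and SNI (6171 to 7814 FPKM). In GRCm38 the annotation GENCODE M21 places Plxnc1 on the minus strand of chromosome 10 (94790866 to 94944835) and Sema7a on the plus strand of chromosome 9 (57940112 to 57962865); 1 further gene model, Gm48718, shares exon bases with Plxnc1 on its strand.

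The DNA upstream of 3 members that moved is shown here, 250 bases before the RefSeq start site (GRCm38.p6), 5′ to 3′ on the gene's strand: the Sema7a and Plxnc1 regions because ligand and receptor fell together, and that of Sema4c because this ligand rose and holds a match to a searched motif. Exons of D430040D24Rik overlap those of the Sema4c gene on the other strand. Whether they reach into the region shown was not examined. Capitals mark a match to the AP-1 letters TGANTCA, the element of Jun and Atf3 family factors, searched on both strands together with the CRE letters TGACGTCA, of which no run of letters matches both. The regions are chr9:57939862-57940111 (plus strand, Sema7a), chr10:94944846-94945095 (minus strand, Plxnc1) and chr1:36558382-36558631 (minus strand, Sema4c).
Sema7a: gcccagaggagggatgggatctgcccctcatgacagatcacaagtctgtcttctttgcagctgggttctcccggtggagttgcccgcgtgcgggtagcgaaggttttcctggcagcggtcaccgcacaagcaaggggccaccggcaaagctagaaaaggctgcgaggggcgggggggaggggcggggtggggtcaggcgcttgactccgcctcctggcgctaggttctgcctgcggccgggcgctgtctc
Plxnc1: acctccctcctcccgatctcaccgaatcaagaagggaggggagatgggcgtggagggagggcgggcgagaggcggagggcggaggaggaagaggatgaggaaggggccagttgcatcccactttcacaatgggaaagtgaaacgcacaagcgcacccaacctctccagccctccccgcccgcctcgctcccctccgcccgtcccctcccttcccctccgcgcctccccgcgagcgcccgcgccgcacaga
Sema4c: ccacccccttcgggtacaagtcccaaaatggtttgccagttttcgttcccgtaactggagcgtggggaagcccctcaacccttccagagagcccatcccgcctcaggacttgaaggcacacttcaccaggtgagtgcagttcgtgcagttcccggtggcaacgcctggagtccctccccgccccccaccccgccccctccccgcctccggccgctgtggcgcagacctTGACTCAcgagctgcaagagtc

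Of these 3, the Sema4c region held an AP-1 match, starting 22 bases before the start site. Over the 300-base windows, which run on 50 bases past the start, 3 of the 60 members with a window held an AP-1 match (5%, Sema4c, Sema4d and Sema6b) and 1 a CRE match (1.67%, Epha2). Among all 27025 genes with a window the shares were 8.97 and 2.03%. By direction, 1 of 8 members that rose and had a window held an AP-1 match, and 1 of 18 that fell. A match is a run of letters and not a measured binding site, and its absence says only that these letters are not in the window.

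Plexins are the signalling receptors of semaphorins, with a GTPase-activating domain inside the cell. Of the 9, Plxnc1, Plxna2 and Plxnd1 fell, and Plxnb2, Plxnb3 and Plxna4 rose. Plxna2, a receptor of Sema6a, measured 8.80 and 11.4 FPKM in WT sham against 5.95 and 4.72 FPKM after injury, with dKO libraries at 9.10 and 8.20 FPKM (sham) and 3.05 and 2.81 FPKM (SNI) (-1.05 ± 0.11, adjusted p 7.85e-05). It thus moved against its ligand in each genotype. Plxna4, the other Sema6a receptor, measured 6.03 and 8.51, 12.3 and 9.35, 6.32 and 5.65, and 7.31 and 6.35 FPKM (0.34 ± 0.13, adjusted p 0.0445), a call lost under median centring (0.0501) and without any 1 of WT sham 1, WT SNI 1, dKO sham 1, dKO sham 2, dKO SNI 1 or dKO SNI 2 (0.0595 to 0.171). With the replicate block its adjusted p was 0.0524. Its exons overlap the antisense gene Plxna4os3, and the labels do not say whether the libraries kept strand.

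Plxnd1, which binds Sema3e without a neuropilin, measured 23.3 and 23.8 FPKM in WT sham against 15.03 and 15.07 FPKM after injury, with dKO libraries at 19.9 and 22.0 FPKM (sham) and 13.1 and 12.3 FPKM (SNI) (-0.65 ± 0.08, adjusted p 0.00023). Ligand and receptor therefore fell together here as well. Plxnb2, the receptor of Sema4c, rose with it, from 4.45 and 4.59 to 7.05 and 6.58 FPKM in WT and from 4.64 and 5.24 to 8.43 and 7.44 FPKM in dKO (0.54 ± 0.09, adjusted p 0.00086). Plxnb3 rose less (0.32 ± 0.09, adjusted p 0.0162), but not without WT sham 2 (0.0684), WT SNI 1 (0.0517) or dKO SNI 2 (0.0508) and under quantile normalization (0.0909). The ligand-binding neuropilins did not pass: Nrp1 stood at -0.07 ± 0.08 and Nrp2 at -0.06 ± 0.10.

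**Figure D2:**
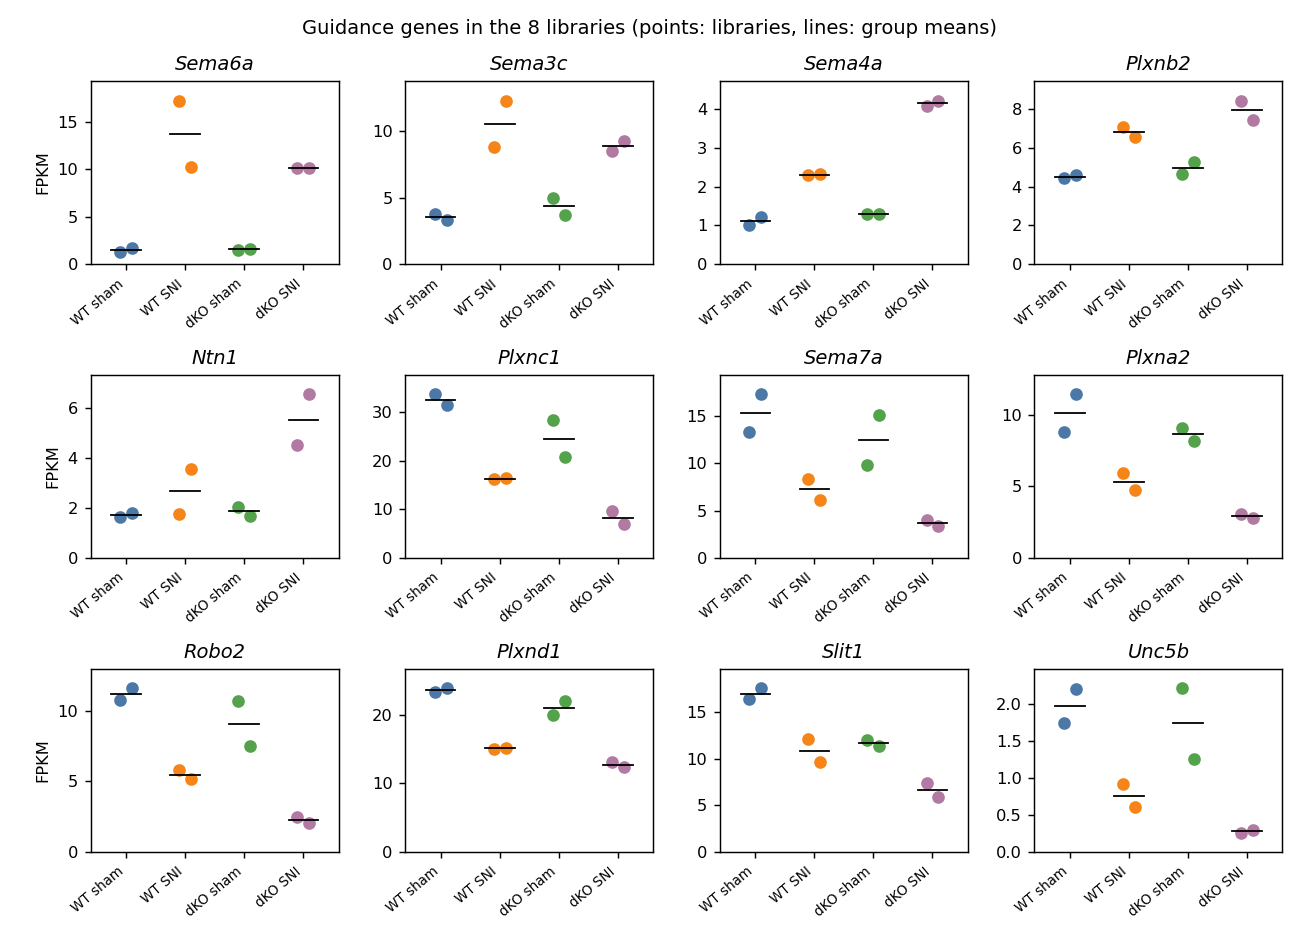
FPKM in each of the 8 libraries (points) with group means (lines) for 12 members, on linear axes from 0. Sema6a and Sema3c are high in all 4 injured libraries, Sema4a and Ntn1 are highest in dKO SNI, and Plxnc1, Sema7a, Plxna2, Robo2, Slit1 and Unc5b are lowest in dKO SNI.

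Slits are secreted repellents read by Robo receptors, and on this axis no tested member was called higher. Robo2 measured 10.8 and 11.6 FPKM in WT sham against 5.82 and 5.16 FPKM after injury, with dKO libraries at 10.7 and 7.51 FPKM (sham) and 2.44 and 2.02 FPKM (SNI). It fell by 1.27 on the log2 scale (± 0.12, adjusted p 4.22e-05), a mean ratio of 0.38. Robo1, at a lower level, went from 1.25 and 1.64 to 0.81 and 0.72 FPKM in WT and from 1.14 and 0.93 to 0.34 and 0.41 FPKM in dKO (-0.52 ± 0.10, adjusted p 0.0027). Slit1 measured 16.5 and 17.6 FPKM in WT sham against 12.1 and 9.63 FPKM after injury, with dKO libraries at 12.03 and 11.34 FPKM (sham) and 7.42 and 5.87 FPKM (SNI) (-0.67 ± 0.11, adjusted p 0.000734). Its WT SNI and dKO sham libraries overlapped. Slit2, outside the rule for named genes, was called as well (-0.33 ± 0.12, adjusted p 0.0375), but not without WT sham 1, WT sham 2, WT SNI 2, dKO sham 1, dKO sham 2 or dKO SNI 2 (0.0554 to 0.129). Robo4, the endothelial member, measured 0.54 to 2.24 FPKM and did not pass (0.32 ± 0.14, adjusted p 0.0683). Robo3 measured at most 0.07 FPKM.

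Netrins attract axons through Dcc and neogenin and repel them through Unc5 receptors. Ntn1 measured 1.64 and 1.81 FPKM in WT sham against 1.74 and 3.56 FPKM after injury, with dKO libraries at 2.04 and 1.68 FPKM (sham) and 4.52 and 6.53 FPKM (SNI) (0.78 ± 0.17, adjusted p 0.00379). The higher level in WT SNI rests on 1 of its libraries, and both dKO SNI libraries lay above all others. Ntn4, a netrin of basement membranes, was called too (0.50 ± 0.16, adjusted p 0.0214), but not without WT sham 2, WT SNI 2, dKO sham 2 or dKO SNI 2 (0.0588 to 0.0744). The repulsive receptor Unc5b fell from 1.74 and 2.20 to 0.92 and 0.60 FPKM in WT and from 2.21 and 1.26 to 0.25 and 0.30 FPKM in dKO (-0.92 ± 0.14, adjusted p 0.000483). Unc5c (-0.33 ± 0.10, adjusted p 0.0154) and neogenin (Neo1, -0.37 ± 0.11, adjusted p 0.0173) fell less. Unc5c was not called without WT sham 2 (0.0678) or WT SNI 2 (0.0521), nor Neo1 without WT sham 1, WT SNI 2, dKO sham 1 or dKO SNI 2 (0.0512 to 0.0614). Unc5a did not pass (-0.29 ± 0.12, adjusted p 0.0536).

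Ephrins are membrane-bound ligands, A-type on lipid anchors and B-type transmembrane, and Eph receptors are the tyrosine kinases that bind them in cell contacts. Efna5 fell, from 3.97 and 4.33 to 2.94 and 2.52 FPKM in WT and from 3.30 and 3.75 to 1.99 and 1.68 FPKM in dKO (-0.57 ± 0.10, adjusted p 0.000991). Efna3 (-0.42 ± 0.11) and Efnb2 (-0.34 ± 0.09) fell at adjusted p 0.0089 and 0.00978. Efna2 (0.36 ± 0.10) and Efnb3 (0.40 ± 0.10) rose at adjusted p 0.0118 and 0.00956. Efnb3 measured 0.27 and 0.24 FPKM in WT sham and 0.77 to 1.43 FPKM in the other 6 libraries. Its group means were 0.25 FPKM in WT sham, 0.77 in WT SNI, 0.82 in dKO sham and 1.24 in dKO SNI. Efna1, the most abundant ephrin, stayed at 8.31 to 12.8 FPKM (-0.01 ± 0.10, adjusted p 0.965).

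On the Eph side Ephb4, an ephrin-B2 receptor of vessels, was the only receptor called for averaged injury: 1.96 and 1.96 FPKM in WT sham against 2.84 and 2.74 FPKM after injury, with dKO libraries at 1.88 and 2.82 FPKM (sham) and 3.82 and 4.50 FPKM (SNI) (0.50 ± 0.11, adjusted p 0.0047). The endothelial marker sums above were also highest in dKO SNI, as were those of the macrophage, fibroblast and neutrophil markers. For averaged injury 3 of 8 endothelial markers were called higher, against 8 of 8 macrophage, 8 of 8 fibroblast and 7 of 7 neutrophil markers. Their part in the change of Ephb4 was not tested. Exons of Zan overlap those of Ephb4 on the other strand. Ephb6, which lacks kinase activity, was the most abundant Eph at 6.99 to 11.5 FPKM and did not pass (-0.22 ± 0.10, adjusted p 0.0923), nor did Epha2 (0.25 ± 0.10), Epha5 (0.07 ± 0.10) or Ephb3 (-0.02 ± 0.12). In dKO alone, Epha2 rose (0.39 ± 0.14, adjusted p 0.0477) and Ephb6 fell (-0.53 ± 0.14, adjusted p 0.0145), calls that WT did not give; Epha2 passed the filter through dKO SNI only.

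The 2 genotypes share no library in their injury comparisons, so each response was then read on its own. In WT SNI against WT sham, 6 members rose and 11 fell, 32.1% of 53, where 23% of all genes were called (13.6% higher, 9.38% lower). The split became 4 and 12 after median centring and after quantile normalization, under which the share of higher genes among all calls went from 59.3% to 49.9 and 45.9%. The count fell to 6 when WT sham 2, which held the muscle transcripts, was left out, to 7 for WT SNI 2 and to 8 for WT sham 1. Sema6a (2.54 ± 0.21), Sema3c (1.33 ± 0.17), Robo2 (-0.91 ± 0.17) and Plxnc1 (-0.95 ± 0.18) were called under every alternative that was run. In dKO SNI against dKO sham, 9 rose and 20 fell, 54.7% of the members, where 48.4% of all genes were called (23.8% higher, 24.6% lower). Leaving out dKO SNI 2 brought the count to 17, and leaving out dKO sham 1 to 19.

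All 11 members that fell in WT also fell in dKO, which is 55% of the 20 that fell there, and 4 of the 6 that rose in WT (66.7%) were among the 9 that rose in dKO (44.4%). Over all tested genes 93.6% of those that fell in WT also fell in dKO (35.7% of the falls there), and 81.2% of those that rose (46.5% of the rises there). No member was called in opposite directions. Over the 53 members the responses of WT and dKO had a correlation of 0.886 (Pearson) and 0.887 (Spearman), a description across genes, which are not replicates, against 0.825 and 0.843 over all tested genes. The change was larger in size in dKO for 37 of 53 members (69.8%), a share like the 70.2% of all tested genes. The falls of Robo2 (-1.63 ± 0.17 against -0.91 ± 0.17), Plxnc1 (-1.46 ± 0.18 against -0.95 ± 0.18), Sema7a (-1.49 ± 0.22 against -0.99 ± 0.22) and Plxna2 (-1.29 ± 0.16 against -0.81 ± 0.16) were among these. So was the rise of Sema4a (1.17 ± 0.13 against 0.65 ± 0.13), while Sema6a (2.12 ± 0.21 against 2.54 ± 0.21) and Sema3c (0.89 ± 0.17 against 1.33 ± 0.17) changed less in dKO.

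**Figure D3:**
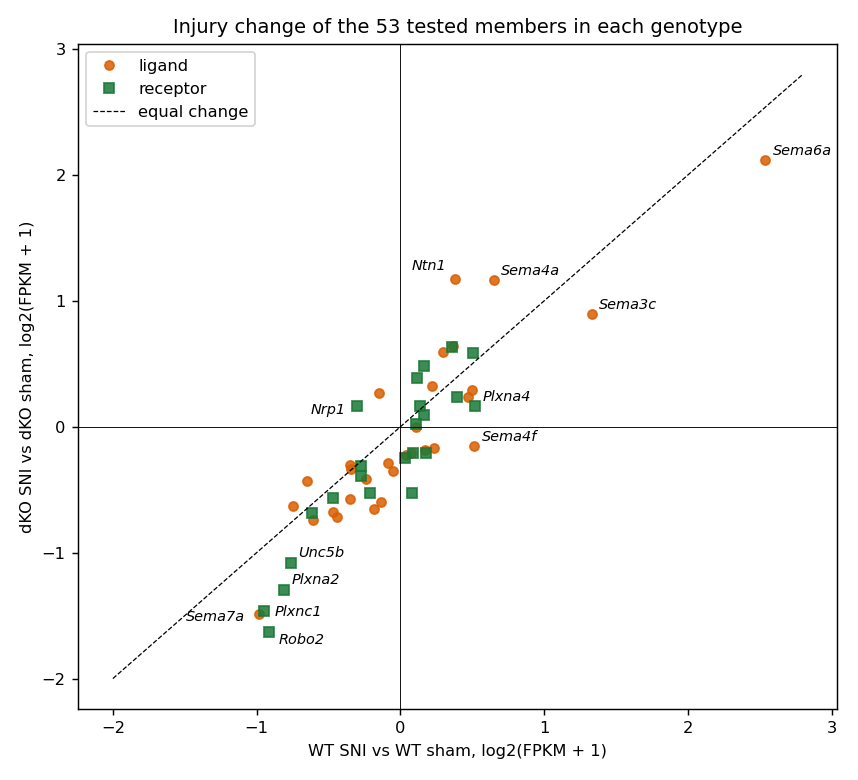
Injury change of each tested member in WT (horizontal axis) and in dKO (vertical axis), as log2(FPKM + 1), with ligands as circles and receptors as squares; the dashed line marks equal change. Robo2, Plxnc1, Sema7a and Plxna2 lie below the line at the lower left, and Sema6a and Sema3c lie below it at the upper right.

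None of these differences between the responses passed the test of the difference itself. The interaction called 0 of the 53 members (limma), where 0.0543% of all genes were called (0.0466% higher, 0.00776% lower). At an unadjusted p under 0.05 it held 6 members, 11.3% of them, against 14.5% of all genes. The lowest adjusted p among the members was 0.279, for Robo2 (-0.72 ± 0.24). The interaction coincides with the division of the Y-linked transcripts.

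The genotype comparison asked whether guidance genes differ where sensory neurons carry Cre and lose myosin II. Averaged over sham and injury, 4 members were higher and 8 lower in dKO, 22.6% of 53, where 22.2% of all genes were called (11.8% higher, 10.4% lower). The members' share in either direction is that of the background. By direction it was 7.55% higher and 15.1% lower, which was not tested. Quantile normalization gave 2 higher and 11 lower, and the fit without a filter 5 calls in all. The 4 higher members were ligands, Sema4a (0.38 ± 0.09), Sema4c (0.42 ± 0.11), Sema4g (0.40 ± 0.10) and Efnb3 (0.44 ± 0.10). Efnb3 reached 1 FPKM in the dKO SNI libraries alone, so the filter itself favours a higher level in dKO. Lower were the receptors Robo2 (-0.65 ± 0.12), Plxnc1 (-0.66 ± 0.13), Plxna2 (-0.44 ± 0.11) and Plxna4 (-0.41 ± 0.13) and the ligands Slit1 (-0.57 ± 0.11), Sema3e (-0.43 ± 0.11), Sema7a (-0.55 ± 0.15) and Sema4f (-0.50 ± 0.14). Their adjusted p ran from 0.0132 (Robo2) to 0.0477 (Plxna4). Robo2 was the only one kept under every alternative, with an adjusted p of at most 0.0496. Without WT sham 2, WT SNI 1 or dKO sham 2 the count fell to 2, and without dKO SNI 2 to 3. In the same average 5 of 10 neuronal markers were called, all lower in dKO (median change of the list -0.45). Called higher were 6 of 8 macrophage, 6 of 8 fibroblast and 7 of 7 neutrophil markers (median changes 0.46, 0.79 and 1.13). Their part in the result was not tested.

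After sham surgery alone, limma called 0 of the 53 members between the genotypes, where 0.155% of all genes were called (0.0931% higher, 0.0621% lower), and 9 had an unadjusted p under 0.05 (17% against 10.8% of all genes). The largest differences were those of Efnb3 (0.54 ± 0.15), Slit1 (-0.51 ± 0.15) and Sema3e (-0.49 ± 0.15), at adjusted p 0.226 to 0.296. Between the injured groups 3 members had higher levels in dKO and 7 lower ones, 18.9% of 53, where 24.1% of all genes were called (10.7% higher, 13.4% lower). Higher were Sema4a (0.64 ± 0.13), Sema4c (0.57 ± 0.16) and Ntn1 (0.87 ± 0.24). Lower were Robo2 (-1.01 ± 0.17), Plxnc1 (-0.92 ± 0.18), Sema4f (-0.83 ± 0.20), Sema7a (-0.80 ± 0.22), Plxna2 (-0.68 ± 0.16), Slit1 (-0.64 ± 0.15) and Plxna4 (-0.59 ± 0.18). Sema4f, a transmembrane class 4 semaphorin, measured 23.5 and 16.4 FPKM in injured WT ganglia and 11.9 and 9.37 FPKM in injured dKO ganglia, against 11.7 and 15.5 FPKM (WT) and 10.98 and 12.9 FPKM (dKO) after sham. The count was 0 without WT SNI 1 and 0 without dKO SNI 2, but 12 without WT SNI 2 and 12 without dKO SNI 1, and the fit without a filter gave 6. In 30 of the 53 members (56.6%) dKO SNI had the lowest group mean, against 41.5% of all tested genes, and WT SNI had it in 0 members and 7.25% of all genes; these shares were not tested.

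**Figure D4:**
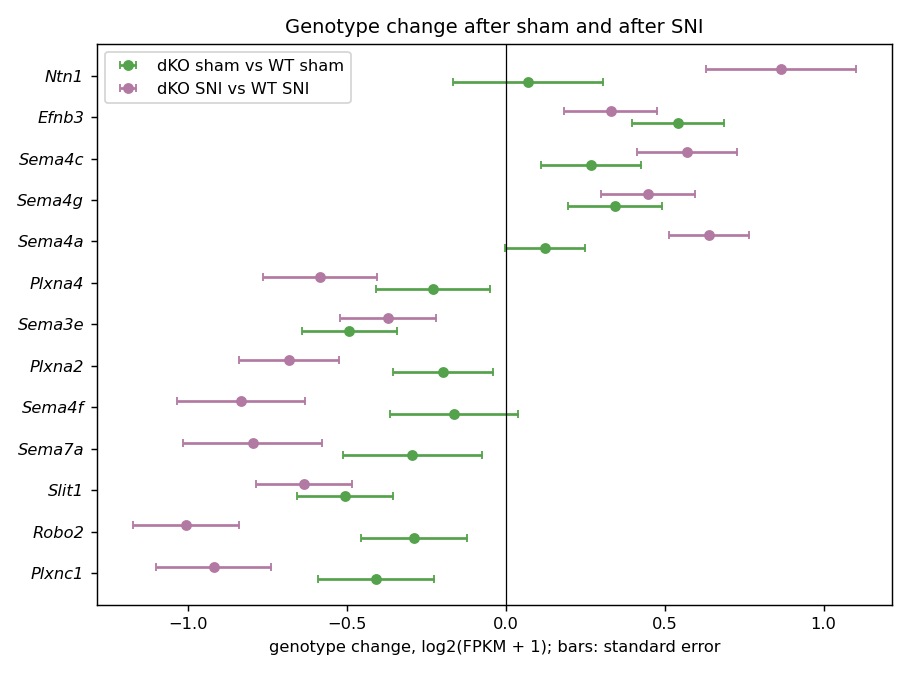
Genotype change as log2(FPKM + 1) with its standard error for the 13 members called in the averaged genotype comparison or in dKO SNI against WT SNI, after sham (green) and after nerve injury (purple). The purple points of Robo2 and Plxnc1 lie at -1.01 and -0.92, the green ones at -0.29 and -0.41, and no green point passed the test.

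A list of 65 further genes of guidance signalling (effectors, co-receptors and related cues) was read for comparison, and 61 were tested. Averaged over the genotypes, 17 rose and 20 fell after injury, 60.7% of the list and near the 55% of all genes, at a median change of 0.00. Flrt3, a transmembrane protein that binds Unc5 receptors, rose most (2.87 ± 0.12), ahead of the adhesion molecule Chl1, a semaphorin co-receptor (1.82 ± 0.13), the small GTPase Rnd1, which binds plexins (1.46 ± 0.13), the kinase Fes (1.34 ± 0.11) and Draxin, a Dcc ligand (0.92 ± 0.10). Among the falls were Limk1, the kinase that inactivates cofilin (-1.08 ± 0.12), the Rac inhibitor Chn1 (-0.82 ± 0.10), L1cam (-0.74 ± 0.14) and the collapsin response mediator Dpysl3 (-0.62 ± 0.10). In the averaged genotype comparison 1 of the 61 was higher in dKO, Fes (0.81 ± 0.11), and 13 were lower, among them Gsk3b (-0.60 ± 0.11), L1cam (-0.59 ± 0.14) and Dpysl3 (-0.56 ± 0.10). That is 23.0% of the list, where 22.2% of all genes were called (11.8% higher, 10.4% lower).

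The other 17 members stayed outside the filter. They were Epha1, Epha3, Epha4, Epha6, Epha7, Epha8, Epha10, Ephb1, Ephb2, Efna4, Sema3a, Sema5b, Slit3, Robo3, Ntn5, Unc5d and Dcc. In a fit without the filter, 6 of them (35.3%) were called for the averaged injury change, where that fit called 41.4% of all genes (22.9% higher, 18.5% lower) and 18% of the genes outside the filter: Epha3 (0.50 ± 0.07), Ephb2 (0.31 ± 0.06) and Efna4 (0.28 ± 0.07) rose, and Sema5b (-0.43 ± 0.05), Epha6 (-0.45 ± 0.06) and Unc5d (-0.11 ± 0.03) fell. Epha3 measured 0.09 and 0.13 FPKM in WT sham against 0.57 and 0.72 FPKM after injury, with dKO libraries at 0.34 and 0.12 FPKM (sham) and 0.74 and 0.56 FPKM (SNI). These 6 genes measured at most 1.11 FPKM in any library, a range in which the unknown depth weighs most.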

How the data were processed

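The authors deposited 1 table of FPKM for 21878 gene symbols in 8 libraries; column names equal the descriptions of the samples. Per the labels' protocols, total RNA was column-purified and made into paired-end TruSeq libraries. HISAT2 2.0.4, StringTie 1.3.0, edgeR and the builds GRCm38.p4 and mm10 appear in the submitters' processing notes, without roles; annotation, strand and further scaling: not given in the sources used here. Of 4905 ratios between low values of the same gene in different libraries, 49.1% came within 0.1 of an integer, where chance gives 20%. Libraries of unequal depth give ratios that are not whole, so this could not decide whether whole reads underlie the values. Read totals are unknown, and a count test was not used.

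The 12884 genes that reached 1 FPKM in 2 or more libraries were tested as log2(FPKM + 1) with limma 3.58.1 in R 4.3.3: a mean for each group, 8 libraries in 1 fit, 4 residual degrees of freedom, empirical Bayes moderation with a trend, two-sided, Benjamini-Hochberg adjustment over all tested genes, threshold 0.05. The script was tested on simulated data. The members and lists were chosen with earlier results of these data known. Named genes are the called members (at most the 30 with the smallest p in a comparison) and, in each class, the most abundant member and that with the smallest p for averaged injury; Slit2 and other members given only as not called were added after their values were seen. Replicate numbers are shared between groups, but deviations of same-numbered libraries correlated at -0.188 to 0.254, so they were not treated as pairs. Promoter sequences are from RefSeq (GRCm38.p6; 60 of 70 members matched) and gene positions from GENCODE M21. Exons of 12 tested members overlap another annotated gene. Alternatives covered the pseudocount, filter, scaling, moderation, groups fitted, replicate block and each library left out.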

Additional observations from a re-analysis of the deposited data

Results flagged for a closer look

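The search covered the members that the rule for named genes gave, and 3 of them are singled out. Their libraries moved in opposite directions in the compared pairs of groups, without overlap. The share over all tested genes was not computed, so this number says nothing particular about the members. Nrp2, outside that search, met the same condition between the genotypes. After sham it measured 3.64 and 4.45 FPKM in WT and 4.76 and 4.50 in dKO. After injury it measured 4.19 and 4.49 FPKM in WT and 4.16 and 3.61 in dKO. None passed the test of the difference. Nrp1, the neuropilin that binds class 3 semaphorins, measured 9.11 and 9.10 FPKM in WT sham against 6.76 and 7.66 FPKM after injury, and 6.96 and 6.88 FPKM in dKO sham against 7.91 and 7.81 FPKM after injury. It was lower after injury in WT and higher in dKO, and lower in dKO after sham and higher after injury. The difference of the responses was 0.46 ± 0.17 (limma, adjusted p 0.287). Ephb6 was higher in dKO than in WT after sham and lower after injury, with a difference of -0.61 ± 0.20 (adjusted p 0.281), and Efna1 showed the same order with a difference of -0.35 ± 0.21 (adjusted p 0.436). These differences coincide with the division of the Y-linked transcripts and cannot be told apart from it.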

How the results depend on the processing

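No called value changed sign under any alternative. With a mean of at least 5 FPKM as the filter, fewer members were tested, and calls numbered 14 (averaged injury), 10 (WT SNI vs WT sham) and 14 (dKO SNI vs dKO sham). Without a filter, 5 were called for averaged genotype and 6 for dKO SNI vs WT SNI; the cause was not tested. Leaving out 1 library gave 24 to 31 calls for averaged injury, 6 to 16 for WT SNI vs WT sham, 17 to 28 for dKO SNI vs dKO sham, 2 to 12 for averaged genotype and 0 to 12 for dKO SNI vs WT SNI. The comparison of the sham groups and the interaction stayed at 0 under every alternative. The labels do not say whether the numbers that replicates share mark pairs, and the counts under a replicate block cannot decide it. With that block the counts were 32 for averaged injury, 16 in WT, 27 in dKO, 13 for averaged genotype and 12 between the injured groups. Of the averaged injury calls Plxna4 was lost (limma, adjusted p 0.0524). Precision is limited by 2 libraries a group and unknown depth.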
